A study of Homo sapiens with 6 samples.

Results

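The zinc finger genes of human chromosome 19 were examined as a group in lists of histone acylation peaks. Members were the protein-coding genes of chromosome 19 in GENCODE 44 whose symbol is ZNF followed by digits only, which gave 240 of the 20007 protein-coding genes analysed. The rule used names and positions and no measured value. The peaks came from ChIP-seq of HepG2 cells, a human line derived from a liver tumour, with pan antibodies against acetylated lysine (Kac) or benzoylated lysine (Kbz), which do not tell which histone lysine carries the mark. The series comprised 6 libraries in 6 groups, namely input, Kac and Kbz, each from untreated control cells and from cells given sodium benzoate (SB) at 10 mM for 24 h, with 1 library per group. The peak lists used were those of control Kac, of SB Kac and of Kbz after SB. The labels state that the control Kbz library gave no peaks, and the inputs were not analysed here. As each group held a single library, there was no replicate error to compare a difference with, so no test was made, and the Wilson 95% intervals given with shares cover counting error only. The depth behind each list was unknown, and a member without a peak is a member without a call, not one shown to lack the mark.

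Most of these genes encode proteins that combine a string of C2H2 zinc fingers, each of which contacts a few bases of DNA, with a KRAB domain. The KRAB domain recruits TRIM28 and, through it, the histone methyltransferase SETDB1, which places H3K9me3 and silences the bound sequence, often a transposable element. The genes arose by tandem duplication and stand in clusters on chromosome 19, and their exons that encode the finger arrays, at the 3' ends, are known themselves to carry H3K9me3 in many cell types. Histone lysine acetylation marks active promoters and enhancers, and lysine benzoylation is an acylation that draws on benzoyl-CoA, which cells can make from benzoate.

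The upstream sequences of 5 members are printed because they stand for the different outcomes of peak calling: the gene with the highest Kbz fold, the strongest with Kac and no Kbz, the strongest called in only 1 of the Kac lists, and both of the first preselected genes with no peak in any list. Each runs 5' to 3' on the strand of its gene, in hg38, from 200 bases upstream towards the transcription start site (TSS), cut where an annotated exon lies in that stretch, and the capitals mark CpG pairs. The stretches lie at chr19:42075966-42076165 (ZNF574, plus strand), chr19:58466880-58467055 (ZNF324, plus strand), chr19:12365684-12365802 (ZNF442, minus strand), chr19:19900746-19900912 (ZNF93, plus strand) and chr19:53537945-53538142 (ZNF331, plus strand). They hold 20, 23, 5, 4 and 21 CpG pairs respectively. The sequence from ZNF442 and that from ZNF93 are the poorest in CpG, while ZNF331, which has no peak at its canonical TSS, is as rich in CpG as ZNF574.
ZNF574: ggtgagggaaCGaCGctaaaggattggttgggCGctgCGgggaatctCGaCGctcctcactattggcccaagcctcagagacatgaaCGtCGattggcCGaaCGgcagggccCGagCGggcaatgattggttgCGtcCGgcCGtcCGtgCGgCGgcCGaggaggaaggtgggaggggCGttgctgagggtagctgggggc
ZNF324: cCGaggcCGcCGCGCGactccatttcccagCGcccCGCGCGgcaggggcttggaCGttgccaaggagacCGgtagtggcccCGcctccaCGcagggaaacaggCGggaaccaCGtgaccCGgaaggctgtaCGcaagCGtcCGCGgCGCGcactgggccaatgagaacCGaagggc
ZNF442: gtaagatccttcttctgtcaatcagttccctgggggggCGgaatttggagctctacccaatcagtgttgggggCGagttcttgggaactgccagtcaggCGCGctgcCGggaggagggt
ZNF93: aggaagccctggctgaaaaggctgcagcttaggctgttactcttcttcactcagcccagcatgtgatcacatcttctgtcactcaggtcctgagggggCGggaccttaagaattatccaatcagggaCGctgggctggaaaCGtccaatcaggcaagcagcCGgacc
ZNF331: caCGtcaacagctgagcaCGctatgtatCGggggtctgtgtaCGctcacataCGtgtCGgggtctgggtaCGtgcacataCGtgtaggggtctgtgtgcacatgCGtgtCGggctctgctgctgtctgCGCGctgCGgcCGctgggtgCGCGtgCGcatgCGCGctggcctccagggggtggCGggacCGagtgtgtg

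To see how often the genes were marked at their start, peaks within 3 kb of the TSS of the canonical transcript were counted. Control Kac peaks lay at the promoters of 155 of the 240 ZNF genes (64.6%, 95% interval 58.3 to 70.4), compared with 72.9% of all protein-coding genes. SB Kac peaks lay at 158 of them (65.8%, 59.6 to 71.5), compared with 71.9%. SB Kbz peaks lay at 154 (64.2%, 57.9 to 70.0), compared with 60.3%. Both Kac shares of all genes lay above the members' intervals, and the Kbz share of all genes lay inside the members' interval. This lower Kac share depended on the settings. At a -log10 q of 2 or more, control Kac was called at 64.6% of members and 70.9% of all protein-coding genes. SB Kac was then called at 65.0% and 69.3%. With any annotated TSS the shares were 67.5% and 76.6% for control Kac, and 69.2% and 75.7% for SB Kac. At a -log10 q of 5 or more, control Kac was called at 50% of members and 48.1% of all protein-coding genes, and SB Kac at 52.9% and 54.5%. With 15000 peaks kept in each list, the shares were 43.3% and 39.2% for control Kac and 47.9% and 49% for SB Kac. Among genes with no start of another gene within 6 kb, they were 59.8% and 63.3%, and 61.6% and 61.7%. Of ZNF genes on other chromosomes, 86.0% had control Kac, 86.4% SB Kac and 79.7% Kbz promoter peaks (n = 236). Among the 1236 other protein-coding genes of chromosome 19, the shares were 75.5%, 73.5% and 61.3%.

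**Figure D1:**
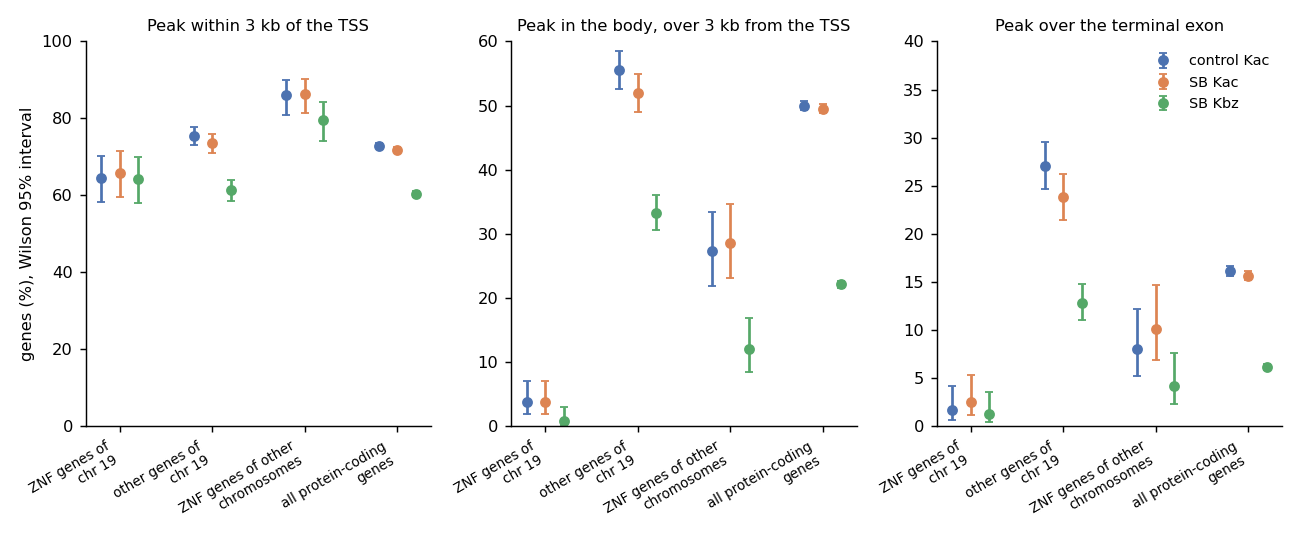
Share of genes with a peak near the TSS (left), in the gene body over 3 kb from the TSS (middle) and over the terminal exon (right), for 4 groups of genes and 3 peak lists, with Wilson 95% intervals. At the promoter the ZNF genes of chromosome 19 sit near 65% in all lists, while in the body and at the terminal exon they sit below every other group.

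The lists mostly named the same ZNF genes. All lists together had a peak at 146 members, while 59.9% of all protein-coding genes had a peak in all lists. No list had a peak at 76 members (31.7%, compared with 24.5% of all protein-coding genes). At a -log10 q of 2 or more it was 32.5% of members and 26.9% of all genes. With any annotated TSS the shares were 28.75% and 21.1%, and with a 1 kb limit 31.7% and 28.4%. The excess was lost or turned under other settings. The shares were 42.9% and 41.5% at a -log10 q of 5 or more, and 41.2% and 44.1% with 15000 peaks a list. They were 34.6% and 36.1% with the TSS base as the criterion, and 34.8% and 33.6% among genes with no other start within 6 kb. In the lists as deposited, this left 18 members with calls in some lists only. A promoter called for Kac in both lists and not for Kbz was found at 4 members (1.67%), compared with 9.57% of all protein-coding genes. Read the other way, Kbz was called at 151 of the 158 members with SB Kac (95.6%, 91.1 to 97.8), compared with 83.6% (83.0 to 84.2) of all protein-coding genes with SB Kac. Among ZNF genes of other chromosomes with SB Kac it was called at 188 of 204 (92.2%, 87.6 to 95.1), a share inside the members' interval. Of all ZNF genes of other chromosomes, 5.93% had Kac in both lists and no Kbz.

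The members' own counts did not depend on the 3 kb limit, because their peaks sat close to the start or far away. With a 1 kb limit the counts stayed at 155, 158 and 154, while the shares of all protein-coding genes fell to 68.9%, 68.3% and 57.3%, so that both Kac shares then lay inside the members' intervals. Of the members without their TSS under a peak, the farthest promoter peak was that of ZNF114, whose control Kac peak lay 468 bp from its TSS, its SB Kac peak 431 bp and its Kbz peak 883 bp. The nearest gene outside the limit was ZNF575, whose closest peaks lay 4641, 5072 and 5222 bp away. The TSS base itself was under a control Kac peak in 151 members (62.9%, compared with 59.2% of all protein-coding genes) and under an SB Kac peak in 149 (62.1%, compared with 60.4%). It was under a Kbz peak in 128 (53.3%, compared with 45.8%). Of the 26 members with a Kbz promoter peak beside the TSS, 19 had it downstream and 7 upstream, at a median distance of 55.5 bp, and in 21 of them the TSS was under SB Kac. With the TSS base as the criterion, 23 members had Kac in both lists and no Kbz. That was 9.58% of the 240, compared with 10.96% of all protein-coding genes. With a 1 kb limit the shares were 1.67% and 8.76%, and with any annotated TSS 1.67% and 9.39%. The low count of such genes thus held in these windows and not with the TSS base. It depended on the threshold too. At a -log10 q of 2 or more such genes were 2.08% of members and 8.97% of all protein-coding genes. At 5 or more the shares were 7.08% and 8.63%, and with 15000 peaks a list 1.25% and 1.94%.

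The peaks at ZNF promoters were short. The strongest control Kac promoter peak of each member had a median length of 1384 bp (quartiles 988.5 and 1899), compared with 2561 bp over all protein-coding genes. The SB Kac peaks had a median of 1302.5 bp, compared with 2682 bp. The Kbz peaks had a median of 1172 bp, compared with 1642 bp. Kbz peaks were therefore nearly as long as the Kac peaks at these genes. The Kbz peak had a median of 88.0% of the length of the SB Kac peak at members with both, and 59.2% over all protein-coding genes with both. It was the shorter at 107 of 151 members (70.9%), compared with 94.0% of all such genes, and all 151 Kbz peaks overlapped an SB Kac peak.

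Kac peaks of the same gene had similar lengths in both conditions. At the 150 members with Kac in both lists, the SB Kac peak was shorter at 93 (62.0%), with a median difference of -76.5 bp. Over all protein-coding genes the SB Kac peak was the shorter at 45.9%, with a median difference of 59 bp. The percentile of the fold within its list was higher with SB at 80 of the 150 members (53.3%), compared with 62.2% of all protein-coding genes. The median change was 0.165 percentage points at members and 2.2 over all protein-coding genes.

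Short peaks were not weak peaks. By the deposited fold, a ratio over background that is read only as a percentile inside each list, the median member stood at the 87.4th percentile in control Kac, at 87.9 in SB Kac and at 71.0 in Kbz. The medians over all protein-coding genes with a promoter peak were 81.8, 85.4 and 67.7. Those of ZNF genes of other chromosomes were 87.3, 89.5 and 74.9, so high ranks were not particular to the members. Of the control Kac promoter peaks of members, 67 of 155 (43.2%) were above percentile 90 of their list, compared with 29.1% over all protein-coding genes. In SB Kac this range held 67 of 158 (42.4%, compared with 36.2%), and in Kbz 32 of 154 (20.8%, compared with 15.8%). A short broad peak averages its fold over a stretch close to the TSS, and the part that length plays in these percentiles was not tested.

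Kbz calls followed the rank of SB Kac. With SB Kac peaks ranked by fold into 10 deciles, all 67 members in decile 10 had Kbz, and in decile 9 all 42 had it, compared with 99.4% and 97.3% of all protein-coding genes. In decile 8 Kbz was called at 27 of 28 members, compared with 86.5%, and in decile 7 at 13 of 16, compared with 63.1%. The other 5 members with SB Kac ranked lower.

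**Figure D2:**
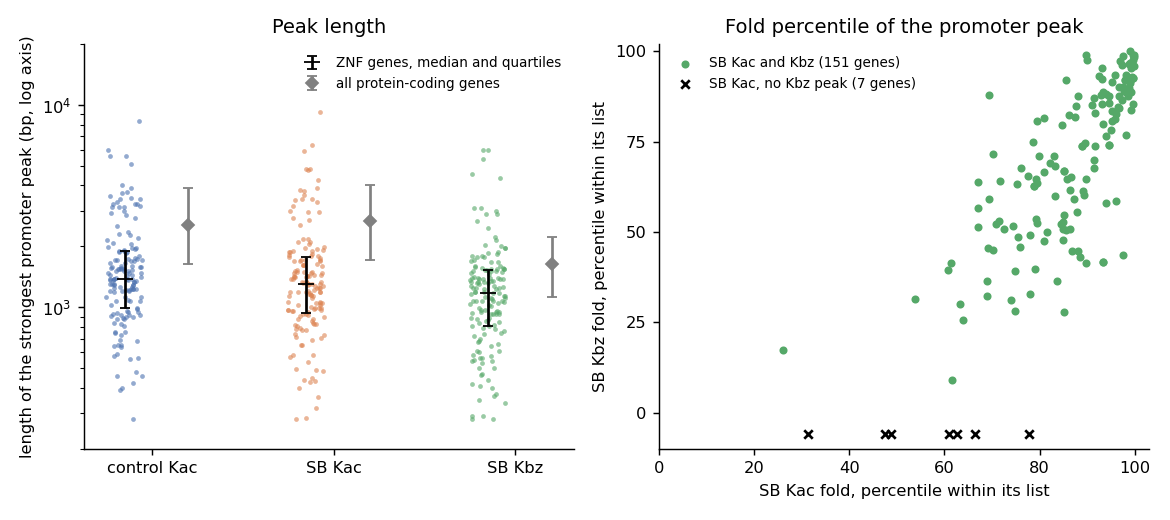
Left, length in bp (log axis) of the strongest promoter peak of each ZNF gene (points), with the median and quartiles for ZNF genes (black) and for all protein-coding genes (grey). Right, percentile of the fold in the SB Kac list against that in the SB Kbz list; the 7 genes with SB Kac and no Kbz are crosses under the axis and lie at or below the 77.7th percentile of SB Kac.

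The strongest promoter peaks were spread over several clusters. ZNF649, a KRAB repressor, was the highest member in control Kac, with a fold of 8.40, and it was among the 5 highest of all lists, with peaks of only 835, 832 and 742 bp. ZNF317, ZNF614, ZNF426 and ZNF615 followed in control Kac, all at percentile 99.76 or higher. In SB Kac the highest were ZNF121 (fold 9.53), ZNF566, ZNF573, ZNF649 and ZNF562. The SB Kac peak of ZNF121 was 1197 bp long and its Kbz peak 1186 bp. In Kbz the highest were ZNF574 (fold 12.4), ZNF121, ZNF628, ZNF649 and ZNF497. At ZNF574, whose upstream sequence is printed above, the Kac peaks of 3231 and 4256 bp spanned the TSS, while the Kbz peak of 1389 bp ended 191 bp upstream of it.

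The 5 members with the longest SB Kac promoter peaks had no match to the KRAB pattern. ZNF628 had the longest SB Kac peak, 9238 bp, with 8328 bp in control Kac and 4553 bp in Kbz. ZNF296, a factor known from reprogramming to pluripotency, had 6323 bp in SB Kac, 5084 bp in control Kac and 4351 bp in Kbz. ZNF526 had 5951 bp in SB Kac and 5432 bp in Kbz. ZNF580 and its neighbour ZNF581 shared a single peak of 4846 bp in SB Kac and of 6000 bp in Kbz. In each list 12 members shared their strongest peak with another member in this way, since their starts lie head to head or side by side.

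Preselected members with known roles fell on both sides. ZNF274, a KRAB protein known to bring SETDB1 to the 3' ends of zinc finger genes, had peaks in all lists, of 1867 bp in control Kac, 1686 bp in SB Kac and 1876 bp in Kbz, at percentiles 97.1, 96.7 and 84.3. ZNF146, a protein made almost only of fingers, was also high, at percentiles 99.4, 99.7 and 92.7. ZNF350 (also named ZBRK1, a partner of BRCA1), ZNF473 (a factor in the processing of histone transcripts), ZNF224 (a KRAB repressor), ZNF382 and ZNF444 were called in all lists too. ZNF382 and ZNF224 were the lowest of these in Kbz, at percentiles 48.7 and 32.8. ZNF93, known to repress LINE-1 elements, had no peak in any list, nor had ZNF154, whose promoter is known to be methylated in many tumours. ZNF331, an imprinted gene, had none at its canonical TSS, but other annotated starts of the gene had a peak within 3 kb in all lists.

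A Kac call present in only 1 condition was rare. Control Kac alone was called at 5 members (2.08%), compared with 3.46% of all protein-coding genes, and SB Kac alone at 8 (3.33%), compared with 2.47%. The 5 with control Kac alone were ZNF442 at percentile 80.0 of its list, and ZNF419, ZNF441, ZNF44 and ZNF20 at percentiles 44.5, 44.1, 43.5 and 40.9. Of these, ZNF20, ZNF44, ZNF441 and ZNF442 lie in the same cluster, between ZNF653 and ZNF791. The strongest with SB Kac alone were ZNF761 at percentile 80.0, ZNF91 at 79.3, ZNF587 at 74.8, ZNF765 at 63.8 and ZNF431 at 61.0. ZNF91, known to repress SVA elements, had a 534 bp SB Kac peak and a 337 bp Kbz peak, with no control Kac call. The SB Kac peaks of these 5 were at most 534 bp long.

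These calls cannot be read as changes, because depth was unknown and each condition had 1 library. Where each list was limited to its 15000 peaks with the highest -log10 p, control Kac alone was called at 11 members (4.58%, compared with 2.97% of all protein-coding genes) and SB Kac alone at 22 (9.17%, compared with 12.7%). Kbz without SB Kac was called at 3 members (1.25%, compared with 0.225% of all protein-coding genes). They were ZNF441 and ZNF419, which had control Kac, and ZNF536, a regulator of neuronal differentiation, with a 280 bp Kbz peak at percentile 43.2. The 4 members with Kac in both lists and no Kbz were ZNF324, ZNF563, ZNF726 and ZNF784. Their SB Kac percentiles were 77.7, 66.3, 62.6 and 48.7, all below the median member.

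The share of marked promoters differed between clusters. Members were parted wherever neighbouring starts were over 1 Mb apart, which gave 16 clusters, 7 of them with 10 or more members. In the cluster from ZNF565 to ZNF573, 22 of 24 members had a peak in each list. In the cluster from ZNF575 to ZNF296, 19 of 24 had control Kac, 20 SB Kac and 20 Kbz. In the last cluster, from ZNF628 to ZNF446, the counts were 45, 45 and 44 of 57, and from ZNF557 to ZNF846 they were 12 of 15 in each list. In the small cluster from ZNF302 to ZNF792 all 5 members had peaks in all lists.

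The remaining large clusters were sparse. From ZNF101 to ZNF254, between positions 19668839 and 24087187, 12 of 37 members had control Kac, 14 SB Kac and 12 Kbz (32.4%, 37.8% and 32.4%). From ZNF175 to ZNF331, the counts were 14, 18 and 16 of 39. From ZNF653 to ZNF791, they were 15, 11 and 11 of 25. These 3 clusters were put together for their low counts, so the following is a description: SB Kac was called at 43 of their 101 members (42.6%, 33.4 to 52.3) and at 115 of the other 139 (82.7%, 75.6 to 88.1). Kbz was called at 39 (38.6%) and 115 (82.7%). Only 3 other protein-coding genes lay inside the span from ZNF101 to ZNF254, of which 1 had SB Kac.

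**Figure D3:**
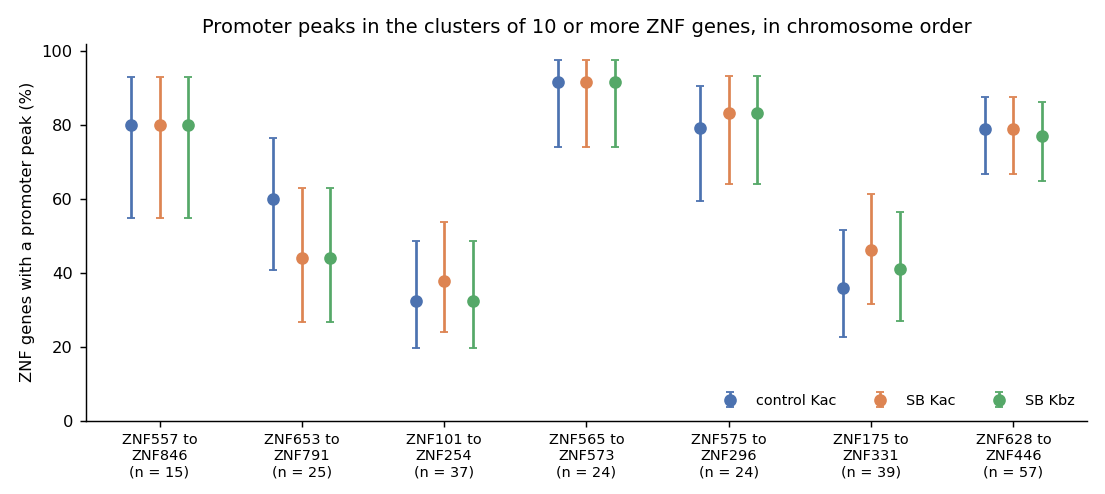
Share of ZNF genes with a promoter peak in each cluster of 10 or more members, in chromosome order, with Wilson 95% intervals. The clusters from ZNF653, from ZNF101 and from ZNF175 sit at 32.4% to 60%, and the other clusters at 77.2% or more.

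Genes without peaks stood next to each other. The longest run of neighbouring members with no peak in any list held 11 genes over 1.28 Mb, from ZNF43 at 21836182 to ZNF730 at 23117025, with ZNF208, ZNF257, ZNF676, ZNF729, ZNF98, ZNF492, ZNF99, ZNF723 and ZNF728 between them. ZNF208 and ZNF729 encode the longest arrays of this run, with 36 and 34 finger patterns. None of the 11 had a peak at any other annotated start either. Runs of 8 members reached from ZNF506 to ZNF626, which includes ZNF93, and from ZNF610 to ZNF83. The longest run of members with a peak held 22 genes, from ZNF536 to ZNF383, and next came 12 from ZNF45 to ZNF227, which includes ZNF224. When only peaks with a -log10 q of 5 or more were kept, the 3 sparse clusters had the lowest shares of the 7 in each list, and SB Kac was called at 20 of 24 members from ZNF565 to ZNF573, and at 8 of 37 from ZNF101 to ZNF254. This too is a description only, since these peaks are part of the lists by which the sparse clusters were grouped.

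Beyond the promoter the ZNF genes were almost free of peaks. Of the 236 members longer than 3 kb, 9 (3.81%) had a control Kac peak in the gene over 3 kb from the TSS, compared with 50% of all protein-coding genes. The same number had SB Kac (3.81%, compared with 49.5%), and 2 had Kbz (0.847%, compared with 22.1%). The difference was also present at like gene length from 6 to 50 kb. Of the 117 members between 20 and 50 kb, 3 had SB Kac in the body (2.56%, 0.876 to 7.27), compared with 48.8% of all protein-coding genes and 17.8% of ZNF genes of other chromosomes in that range of length. Of the members between 6 and 20 kb, 4 had SB Kac there (3.81%), compared with 37.0% and 16.5%. Over 50 kb there were only 6 members, of which 2 had SB Kac in the body (33.3%, 9.68 to 70.0). The 69.7% of all protein-coding genes of that length lay inside this wide interval.

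The 3' ends carried few calls. The last base of the canonical transcript was under a control Kac peak in 3 members (1.25%, 0.426 to 3.61), compared with 9.55% of all protein-coding genes. SB Kac and Kbz each covered the last base of 3 members as well, compared with 9.44% and 3.40%. For Kbz the share of all protein-coding genes lay inside the members' interval, 0.426 to 3.61%. Of ZNF genes of other chromosomes, 5.93%, 5.51% and 2.12% had their last base under control Kac, SB Kac and Kbz, and this Kbz share too lay inside it. A peak touched any part of the terminal exon, which in these genes usually encodes the finger array, in 4 members for control Kac (1.67%, compared with 16.1%), 6 for SB Kac (2.50%, compared with 15.7%) and 3 for Kbz (1.25%, compared with 6.15%). Within 3 kb to either side of the last base the counts rose to 17, 19 and 14 (7.08%, 7.92% and 5.83%), compared with 31.5%, 30.5% and 15.9% of all protein-coding genes. Where no annotated start lay within 3 kb of the end, 1 of 163 members had its last base under a peak in each list (0.613%), compared with 5.13%, 4.54% and 0.973% of such protein-coding genes. For Kbz this share lies inside the interval of the members' count, 0.108 to 3.39%.

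**Figure D4:**
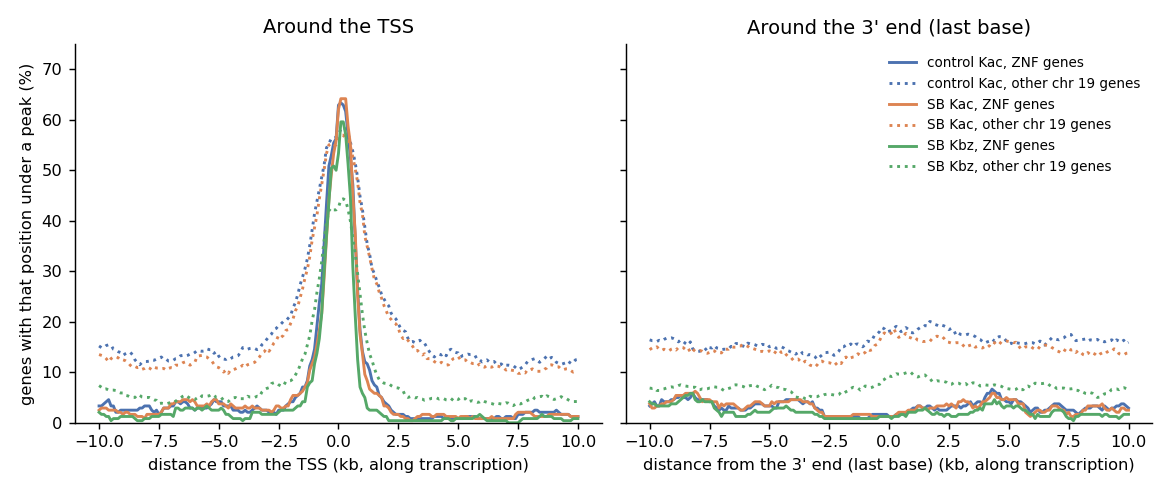
Percentage of genes with each position under a peak, from 10 kb before to 10 kb after the TSS (left) and the last base of the gene (right), for ZNF genes (solid) and other protein-coding genes of chromosome 19 (dotted). At 1 kb downstream of the TSS, 13.8% of ZNF genes were under SB Kac against 41.3% of the other genes, and at the last base 1.25% against 17.5%.

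The members whose ends were called are few enough to describe. ZNF580 is only 2469 bp long, so the peak over its start also covered its end in all lists, and the same 6000 bp Kbz peak covered the end of ZNF581. The end of ZNF324 was covered by Kac peaks of 3485 and 3768 bp that also lie at the start of its neighbour ZNF446. ZNF541 is the exception. It had no promoter peak, but its last base, at the far end of a gene of 52459 bp and with no annotated start within 3 kb, lay under peaks of 1311 bp in control Kac, 2149 bp in SB Kac and 1075 bp in Kbz. These were weak peaks of their lists, at percentiles 12.4, 43.98 and 5.69. ZNF541, known from spermatocytes, also had the most peaks in its body, 7 in control Kac, and at 2 of these another annotated start of the gene lay within 3 kb.

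Reads had to map to a unique place, which matters for genes that resemble each other. The median share of 50-base words that occur once in the genome was 93.9% over the promoter windows of members and 94.1% over those of other genes of chromosome 19. In the terminal exons it was 96.3%, compared with 100%. In 54 members under 90% of the promoter words were unique, and SB Kac was called at 46.3% of them (33.7 to 59.4), compared with 71.5% (64.6 to 77.5) of the other 186. The part of mappability in the calls was not tested. Inside the sparse clusters the median over terminal exons was 93.1%.

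The marked promoters were richer in CpG. In the 300 bases from 250 before to 50 after the TSS, members with Kbz had a median of 22 CpG pairs and members with no peak 16, while over all protein-coding genes the medians were 27 and 5. Members without a peak were thus far richer in CpG than other genes without a peak. At 20 to 29 CpG pairs, SB Kac was called at 76 of 95 members (80.0%, 70.9 to 86.8), compared with 88.0% of all protein-coding genes. At 30 or more it was called at 23 of 33 (69.7%, 52.7 to 82.7), compared with 90.6%. Among members with 20 or more CpG pairs, SB Kac was called at 52.6% of 38 in the sparse clusters and at 87.8% of 90 in the others, a description only, since the sparse clusters were grouped by their low SB Kac counts.

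**Figure D5:**
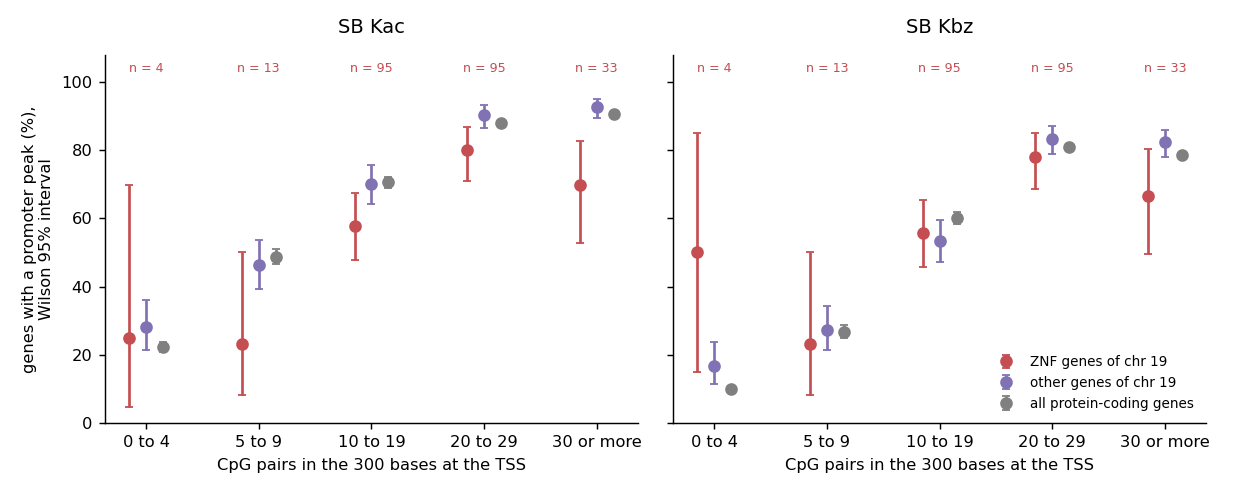
Share of genes with an SB Kac (left) or SB Kbz (right) promoter peak by the number of CpG pairs in the 300 bases at the TSS, with Wilson 95% intervals and the number of ZNF genes in each bin. At 30 or more pairs the ZNF genes sit at 69.7% for SB Kac, below the 90.6% of all protein-coding genes. For Kbz they sit at 66.7%, and the 78.6% of all protein-coding genes lies inside their interval, 49.6 to 80.2.

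Promoter motifs were searched as exact letters on both strands of the same 300 bases. CCGGAAGT, which holds the core bound by ETS factors, was found at 43 members (17.9%), compared with 6.14% of all protein-coding genes and 14.8% of ZNF genes of other chromosomes. It was in 26.6% of members outside the sparse clusters and in 5.94% inside them. Outside the sparse clusters it was as common in members with Kbz (30 of 115, 26.1%) as in those with no peak (6 of 22, 27.3%). CCAAT, the box bound by NF-Y, was found at 52.1% of members, compared with 36.1%, and it was in 43.5% of members with Kbz and 63.2% of those with no peak. Inside the sparse clusters, where it was more common, it was in 66.7% of members with Kbz and in 66.7% of those with no peak, and outside them in 35.7% and 54.5%. GGGCGG, the core bound by SP1, was in 64.3% of members with Kbz and 76.3% of those with no peak, whereas over all protein-coding genes it was more common with Kbz (74.6%) than with no peak (31.6%). Outside the sparse clusters GGGCGG was in 60.9% of members with Kbz and 59.1% of those with no peak. Inside them, where it was more common (80.2%, compared with 61.2%), these shares were 74.4% and 83.3%. CGCATGCG, ATGGCGGC and TCGCGA were in 3.75%, 5.0% and 3.75% of members, compared with 2.83%, 4.56% and 4.47% of all protein-coding genes, and TATAAA in 2.92%, compared with 9.71%. Of the printed promoters, ZNF324 has CCGGAAGT and CCAAT in its 300 bases, and ZNF574, ZNF442 and ZNF93 have GGGCGG and CCAAT. The printed stretch of ZNF331 holds CGCATGCG.

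The number of fingers and the KRAB match were set beside the calls. A KRAB pattern was found in 194 of 240 members (80.8%). Kbz was called at 61.3% of members with it (54.3 to 67.9) and at 76.1% of the 46 without it (62.1 to 86.1), and these intervals overlap. The median number of finger patterns was 12 in members with Kbz and 13 in members with no peak. Kbz was called at 64.5% of members with up to 9 fingers, 63.3% of those with 10 to 14 and 65.2% of those with 15 or more.

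Promoters of the partners through which KRAB proteins silence were also looked up. Of 24 listed genes, among them TRIM28, SETDB1, CBX5 and ATF7IP, all 24 had control Kac and SB Kac promoter peaks and 22 had Kbz, compared with 72.9%, 71.9% and 60.3% of all protein-coding genes. The exceptions in Kbz were DNMT3A, a DNA methyltransferase, and MPHOSPH8, a subunit of the HUSH complex. As a check of the labelled cell type, 14 liver genes were looked up, of which 4 had control Kac peaks, 4 SB Kac and 3 Kbz. ALB, AFP, APOB and FOXA2 had no peak within 3 kb of the canonical TSS in any list, which goes against the label of a liver line. HNF4A had none either, but only the canonical TSS of each listed gene was looked up. Peaks at other starts of these genes would have been missed. Of 8 listed kidney development genes 7 had peaks in each list, and with so few genes this count is not set apart from the shares of all protein-coding genes just given. Among 4 neuronal genes 2, 3 and 2 had peaks, and among 5 blood genes 2, 2 and 1. The results on ZNF genes therefore belong to the libraries as labelled.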

How the data were processed

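The authors digested HepG2 chromatin with micrococcal nuclease, sequenced 50 bp reads, mapped them uniquely to hg38 (Bowtie2 2.2.6 in the submitters' processing notes), removed duplicates (SAMtools 0.1.19) and called broad peaks per library (MACS2 2.1.1, stated FDR 0.01). Each deposited peak has a start and end, a display score (not used), a fold ratio over background, and a -log10 p and a -log10 q, all averages over the peak. The lowest deposited -log10 q was 1.31, so the lists reach beyond the stated FDR. The lists held 70326 control Kac (3 others on unplaced sequences were left out), 63282 SB Kac and 24308 SB Kbz peaks, of which 2763, 2571 and 1470 were on chromosome 19.

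Genes, canonical transcripts and coding sequences came from GENCODE 44 on hg38, whose chromosome lengths no peak exceeded. An overlap needed 1 bp. Fold was converted to its percentile within its list. Clusters were split at gaps over 1 Mb. Sequence features were read from hg38, and RefSeq promoters, which hold 210 of the 240 members, were not needed. KRAB and finger patterns were searched in the translated canonical coding sequence, and a degenerate KRAB box can be missed. Uniqueness was counted over 50-base words of 25 chromosomes. The members and lists were chosen with earlier results of these data known. Named members were those with a peak over the last base, the 5 highest by fold percentile in each list and the 5 longest in SB Kac, the 5 highest of each set called in some lists only, all with Kbz and no SB Kac, the longest run without peaks, and 12 preselected genes. ZNF114, ZNF575, ZNF446 and the ends of clusters and runs were named outside this rule, after their values were seen.

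No test between groups was made, as each group had 1 library. The work was done with pandas 2.3.3, numba 0.67.0, numpy 2.4.6 and scipy 1.17.1 under Python 3.11.15, and plots with matplotlib 3.10.9. Overlaps were tested with random positions drawn inside deposited control Kac peaks of chromosome 19, where 1000 of 1000 were found. The promoter counts over all protein-coding genes equalled those of bedtools 2.31.1 in the 3 lists.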

Additional observations from a re-analysis of the deposited data

How the results depend on the processing

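No paired analysis was possible because a single library stood for each group, and no replicate could be left out. Each of 11 counts was recomputed under other thresholds, windows and gene sets, 81 values in all, of which 55 were within 1.5 times the reported count. Requiring a -log10 q of at least 5 gave 17 members with Kac in both lists and no Kbz (7.08%, compared with 8.63% of all protein-coding genes). It gave 14 with SB Kac alone (5.83%, compared with 9.82%). The last base was under Kac in 1 member in either list (0.417%, compared with 4.49% in control Kac and 5.02% in SB Kac). Keeping 15000 peaks of each list gave 11 with control Kac alone (4.58%, compared with 2.97%) and 22 with SB Kac alone (9.17%, compared with 12.7%). Again 1 and 1 last bases were under Kac (0.417%, compared with 3.53% and 4.42%). With the TSS base as the criterion, 23 had Kac in both lists and no Kbz (9.58%, compared with 10.96%). SB Kac alone was then called at 5 (2.08%, compared with 4.64%), which turns the order of the reported 3.33% and 2.47%. Among the 112 members with no start of another gene within 6 kb, 67 had control Kac (59.8%, compared with 63.3% of such protein-coding genes). SB Kac was called at 69 (61.6%, compared with 61.7%) and Kbz at 65 (58.0%, compared with 48.4%). No peak was found at 39 (34.8%, compared with 33.6%). Control Kac alone was called at 3 (2.68%, compared with 4.56%) and SB Kac alone at 5 (4.46%, compared with 2.93%). The counts were lower because fewer genes were counted. At the 3' end, a 1 kb margin gave 9, 8 and 7 members (3.75%, 3.33% and 2.92%, compared with 18.9%, 18.4% and 8.09%). A 3 kb margin gave 17, 19 and 14 (7.08%, 7.92% and 5.83%, compared with 31.5%, 30.5% and 15.9%). The terminal exon gave 6 for SB Kac (2.50%, compared with 15.7%). Ends without a start within 3 kb gave 1, 1 and 1 (0.613%, compared with 5.13%, 4.54% and 0.973%). A gap of 0.5 Mb gave 20 clusters. Other symbols with a letter after the digits, 246 genes in all, moved no count by over 1.5 times. The unknown depth limits every comparison between lists: a weak mark may have been missed.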

Other observations

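Outside the promoters a few members carried peaks of their own. ZNF536 had control Kac peaks of 2344, 1779 and 1821 bp inside the gene and SB Kac peaks of 501 and 1255 bp, none within 3 kb of an annotated start. ZNF507, in the gene-poor stretch beside it, had a 2073 bp control Kac peak 27747 bp from its TSS and an 873 bp SB Kac peak 27632 bp from it. ZNF347, which had no promoter peak, had a 293 bp Kbz peak 5837 bp inside the gene at percentile 76.0 of its list, with no Kac peak in its body. All of these rest on 1 library each.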
